A study of Rattus norvegicus with 32 samples.

Results

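The comparison set mammary glands taken at midday against glands taken at both ends of the sampled day. Of 32 rats, 14 were killed between 10.5 and 14.6 h on the clock and form the midday arrays. The references were 9 morning rats, killed between 7 and 10 h, and 8 evening rats, killed between 16 and 19.1 h. The rat of 40 h of the cycle, which the study set aside because its data looked corrupted, was left out, which leaves 31 arrays. The windows were set by the clock hour alone, taken from the hour of the cycle in the labels, and no expression value was used to choose them. All were adult virgin female Sprague Dawley rats with regular 4-day estrous cycles on standard chow, without treatment, and each array stands for 1 rat at 1 time point. The window and not a shared hour therefore makes the rats of a group replicates, and the spread within a group holds differences between rats, between cycle days and between hours of the window.

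Each probe set (short oligonucleotides matched to 1 or more transcripts) gave an intensity on a linear scale. The contrast is the log2 level at midday minus the mean of the log2 levels in the morning and in the evening, with cycle day as a factor. A transcript that climbs or falls at a steady rate through the day gives a contrast near 0, since the mean clock hour was 12.8 h for the midday rats and 12.9 h for the mean of the 2 ends. A transcript with its highest or lowest level near noon gives a contrast away from 0. The contrast is also the test of whether the step between morning and midday equals the step between midday and evening. It was fitted for 21068 probe sets with an intensity of 10 or more on all 31 arrays. Array medians lay between 49.96 and 53.6 at midday, between 51.1 and 53.2 in the morning and between 49.9 and 54.7 in the evening.

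The mammary gland, like most tissues, carries a circadian clock in its own cells. BMAL1 with CLOCK or NPAS2 activates genes through the E-box. Among these are the period and cryptochrome genes, whose proteins repress BMAL1 and CLOCK, and Nr1d1 and Nr1d2, whose proteins REV-ERB alpha and beta repress Bmal1, Npas2, Cry1 and Nfil3. DBP, TEF and HLF activate genes through the D-box, which NFIL3 represses. The loops turn at different hours, so that genes of one clock can be at a peak, on a slope or in a trough at midday.

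No probe set passed an adjusted p of 0.05 for midday against both ends, neither higher (0 of 21068, 0%) nor lower (0 of 21068, 0%), and the smallest adjusted p was 0.157 (limma). At an unadjusted p under 0.05, 816 probe sets (3.87%) were higher and 923 (4.38%) lower at midday, together 1739. In whole tissue a lower level of a transcript in a cell type and fewer cells of that type cannot be told apart. The median contrast of all probe sets was -0.0028 on the log2 scale and the median standard error (SE) 0.083. The alternatives gave from 0 to 3 probe sets higher and from 0 to 4 lower. Genes are named below by the size of the unadjusted p or as members of the clock lists, and none of them passed the threshold of this contrast.

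Among the clock genes the furthest below both ends was Cry1, the cryptochrome that represses BMAL1 and CLOCK and is itself a target of REV-ERB. Cry1 (probe set 1392640_at) had an intensity from 27.0 to 98.7 at midday, with a median of 57.3, against 45.5 to 150 with a median of 93.9 in the morning and 34.0 to 225 with a median of 100.1 in the evening. The ranges overlapped, but 13 of 14 midday rats were below the morning median and 14 of 14 below the evening median. The contrast was -0.80 (SE 0.23, unadjusted p = 0.00155, adjusted p = 0.375), with -0.79 against morning and -0.81 against evening. Taken by cycle day it was -0.93, -1.38, -0.44 and -0.25 on days 1 to 4. Within the morning the lowest Cry1 intensities, 51.9 and 45.5, belonged to the rats of 10 h and 58 h, both killed at 10 h on the clock. Within the evening the earliest rats, those of 16, 88.1 and 64.2 h of the cycle, had 65.7, 60.6 and 34.0, against 93.8 to 225 in the later 5.

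Nr1d1, which encodes REV-ERB alpha, had the highest contrast of the clock genes. Its intensity (1370816_at) ran from 85.8 to 561 at midday with a median of 255, against 14.7 to 224 with a median of 78.8 in the morning and 146 to 403 with a median of 295 in the evening. All 14 midday rats were above the morning median, but only 6 of 14 were above the evening median. The contrast was 0.79 (SE 0.32, unadjusted p = 0.0202, adjusted p = 0.543), made of 1.73 against morning and -0.16 against evening. The contrast was above 0 on every day, with 1.30, 0.92, 0.57 and 0.22 on days 1 to 4. In the evening the 4 highest Nr1d1 intensities, 326 to 403, came from the rats of 16, 41.6, 64.2 and 88.1 h of the cycle. The rats of 43 and 67.1 h, at 19 h and 19.1 h on the clock, had 146 and 154.

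Nr1d2, which encodes REV-ERB beta, rose against morning and was read by 3 probe sets. The main one (1390430_at) had 980 to 2003 at midday with a median of 1587, against 499 to 1550 with a median of 757 in the morning and 1576 to 2594 with a median of 1966 in the evening. In all 14 midday rats it was above the morning median, and in 10 of 14 above every morning rat, while 13 of 14 were below the evening median. Nr1d2 was higher at midday than in the morning by 0.99 (SE 0.14, adjusted p = 0.00092) and had -0.34 against evening (SE 0.15, adjusted p = 0.321). Its contrast against both ends was 0.32 (SE 0.12, unadjusted p = 0.0116, adjusted p = 0.492), and the other probe sets gave 0.33 (1370541_at) and 0.19 (1370540_at).

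These 3 genes were the only ones past an adjusted p of 0.05 when the hour and its square replaced the windows. In that fit each rat counts at its own hour, and the curvature was put on the scale of the window contrast. Cry1 was lower at midday by that curvature, with -0.90 and an adjusted p of 0.00471. Nr1d1 was higher, with 1.05 and an adjusted p of 0.00782, and Nr1d2 with 0.37 and an adjusted p of 0.0228. The next clock gene there was Wee1, with an adjusted p of 0.472. Under the 47 remaining alternatives for each of these genes the adjusted p stayed above the threshold, and the sign of the contrast did not change.

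**Figure D1:**
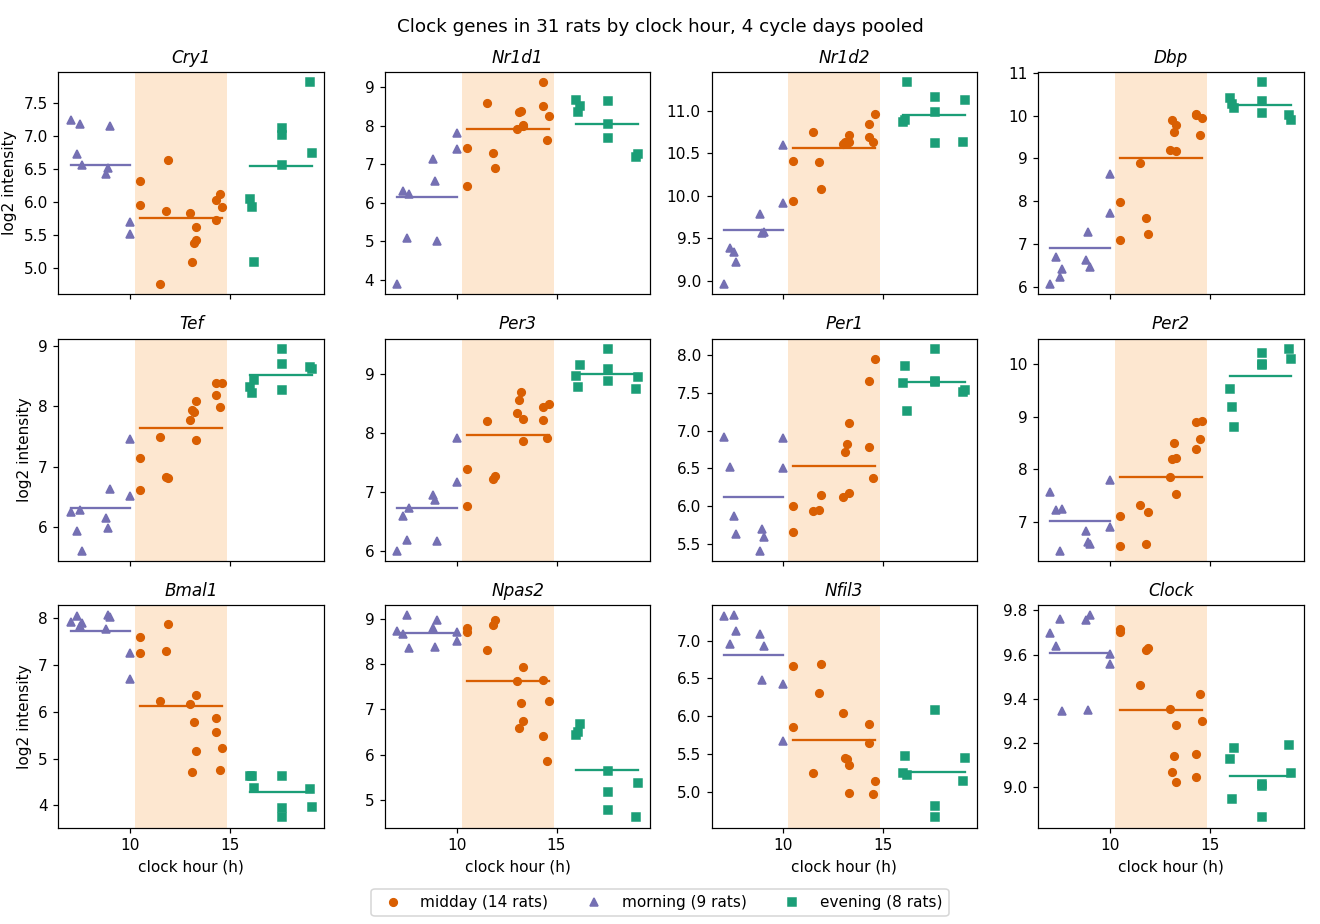
Log2 intensity of 12 clock genes in the 31 rats against the clock hour in h, with the midday window shaded and 4 cycle days pooled. Circles are midday rats, triangles morning rats and squares evening rats, and each line is the mean of a window. Cry1 had a median intensity of 57.3 at midday, below 93.9 in the morning and 100.1 in the evening.

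Per1, Per2, Hlf, Usp2 and Wee1 were lower at midday than in the evening and passed no test against morning, but their contrasts, which test the steps for a difference, did not pass. Per2, a period repressor of the clock, had 92.4 to 482 at midday with a median of 263, against 86.9 to 221 with a median of 119 in the morning and 449 to 1264 with a median of 1024 in the evening. Of 14 midday rats 12 were below every evening rat, and 8 were above every morning rat. Per2 was lower at midday than in the evening by a difference of -1.88 (SE 0.27, adjusted p = 0.000378), the call passing in all 45 alternatives, and had 0.88 against morning (adjusted p = 0.47). Per1 was lower at midday than in the evening by a difference of -1.08 (adjusted p = 0.0329) and had 0.47 against morning. Its midday intensities reached 246 and so ran into the evening range of 153 to 272. Hlf, a D-box activator, was lower than in the evening by a difference of -1.07 (adjusted p = 0.00468), with 13 of 14 midday rats below every evening rat. Usp2, a deubiquitinase under clock control, was lower by a difference of -1.16 (adjusted p = 0.0257) and Wee1, a kinase that restrains entry into mitosis, by a difference of -0.92 (adjusted p = 0.0349). Second probe sets of Per2 (1378560_at), Usp2 (1375549_at) and Wee1 (1370663_at) were not called against evening. On these, 13, 11 and 11 of 14 midday rats were below the evening median. The evening calls of Per1, Usp2 and Wee1 were lost in 8, 6 and 9 of the 31 refits that each left out 1 rat. Their contrasts against both ends were all below 0, from -0.50 for Per2 to -0.27 for Hlf, with unadjusted p from 0.0314 to 0.175.

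In other genes the step between morning and midday passed the test. Dbp, the founding D-box activator, had 137 to 1058 at midday with a median of 666, against 67.1 to 401 with a median of 98.5 in the morning and 947 to 1763 with a median of 1197 in the evening. All 14 midday rats were above the morning median and all 14 below the evening median. Dbp was higher at midday than in the morning by 2.14 (SE 0.36, adjusted p = 0.00766) and had -1.18 against evening (SE 0.38, adjusted p = 0.169), so that the contrast against both ends was 0.48 (SE 0.30, adjusted p = 0.681). Tef was higher than in the morning by 1.38 (SE 0.20, adjusted p = 0.00092), and its contrast was 0.29, while 2 further probe sets were 1.23 and 1.08 above morning with contrasts of 0.03 and -0.04. Those 2 were also lower than in the evening, with -1.18 (adjusted p = 0.012) and -1.16 (adjusted p = 0.00392), and their morning calls were lost without the rat of 31.6 h. The same morning calls were lost in 6 of 13 and 6 of 14 other alternatives. Per3 passed on both sides, 1.28 above morning (adjusted p = 0.00766) and -0.99 against evening (adjusted p = 0.0332). All 14 Per3 midday values of this probe set were below every evening value, yet the evening call was lost in 8 of the 31 refits without 1 rat. A second Per3 probe set (1388239_at) was called on neither side. On it 13 of 14 midday rats were above the morning median and 12 below the evening median. The contrasts of the main probe sets, from 0.14 for Per3 to 0.48 for Dbp, did not pass, so that the steps before and after midday were not shown to be unequal.

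In the opposite arm Bmal1 passed the test on both sides, and Npas2 and Nfil3 on 1 side each. Bmal1, the activator itself, had 26.2 to 235 at midday with a median of 64.9, against 105 to 268 with a median of 239 in the morning and 13.4 to 24.8 with a median of 20.5 in the evening. Every midday rat was below the morning median and above every evening rat. Bmal1 was lower at midday than in the morning by a difference of -1.65 (SE 0.29, adjusted p = 0.0123) and higher than in the evening by 1.71 (SE 0.31, adjusted p = 0.00498). The morning call was lost without the rat of 31.6 h and in 6 of 14 other alternatives, and the evening call in 2 of those 14. The contrast of Bmal1 was 0.03 (SE 0.25, adjusted p = 0.982), and under alternatives it lay between -0.13 and 0.19. Within the window Bmal1 was 152 and 193 in the rats of 10.5 h on the clock and 27.0 and 37.5 in those of 14.5 and 14.6 h, with the highest value, 235, at 11.9 h. Npas2, a relative of Clock that pairs with BMAL1, was higher at midday than in the evening by 1.89 (SE 0.34, adjusted p = 0.00468) and had -1.07 against morning (adjusted p = 0.469). Nfil3, the D-box repressor, was lower than in the morning by a difference of -1.15 (SE 0.22, adjusted p = 0.0279) and had 0.40 against evening, and 10 of the 31 refits without 1 rat lost its call. Clock had -0.26 and 0.31 on its main probe set (1390199_at), neither past the threshold. Another Clock probe set (1389456_at) was lower than in the morning by a difference of -0.41 (adjusted p = 0.0399), a call lost in 20 of the 31 refits.

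Of the remaining clock genes none passed on either side. Cry2 had a contrast of -0.04, Bhlhe40 of 0.03 and Bhlhe41 of 0.09, the last 2 being repressors of the BMAL1 and CLOCK pair. Rora, an activator of Bmal1, had -0.18 (SE 0.07, unadjusted p = 0.0142). Ciart had no probe set among those tested, and Rorb was under the intensity limit on at least 1 array. With 1 probe set taken for each gene, 13 of 14 genes of the list for targets of the E-box or D-box and 6 genes of the BMAL1 list were tested. For midday against both ends, 0 of 13 and 0 of 6 were called. Against morning 4 of 13 were called higher (Dbp, Tef, Per3 and Nr1d2) and 2 of 6 lower (Bmal1 and Nfil3), where 0.038% of all probe sets were called higher and 0.0237% lower. Against evening 6 of 13 were called lower (Per1, Per2, Per3, Hlf, Usp2 and Wee1) and 2 of 6 higher (Bmal1 and Npas2), where 0.37% of all probe sets were lower and 0.176% higher. Counting any probe set of a gene adds Clock to the genes lower than in the morning and Tef to those lower than in the evening. Both sets of counts rest on the same 14 midday rats.

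**Figure D2:**
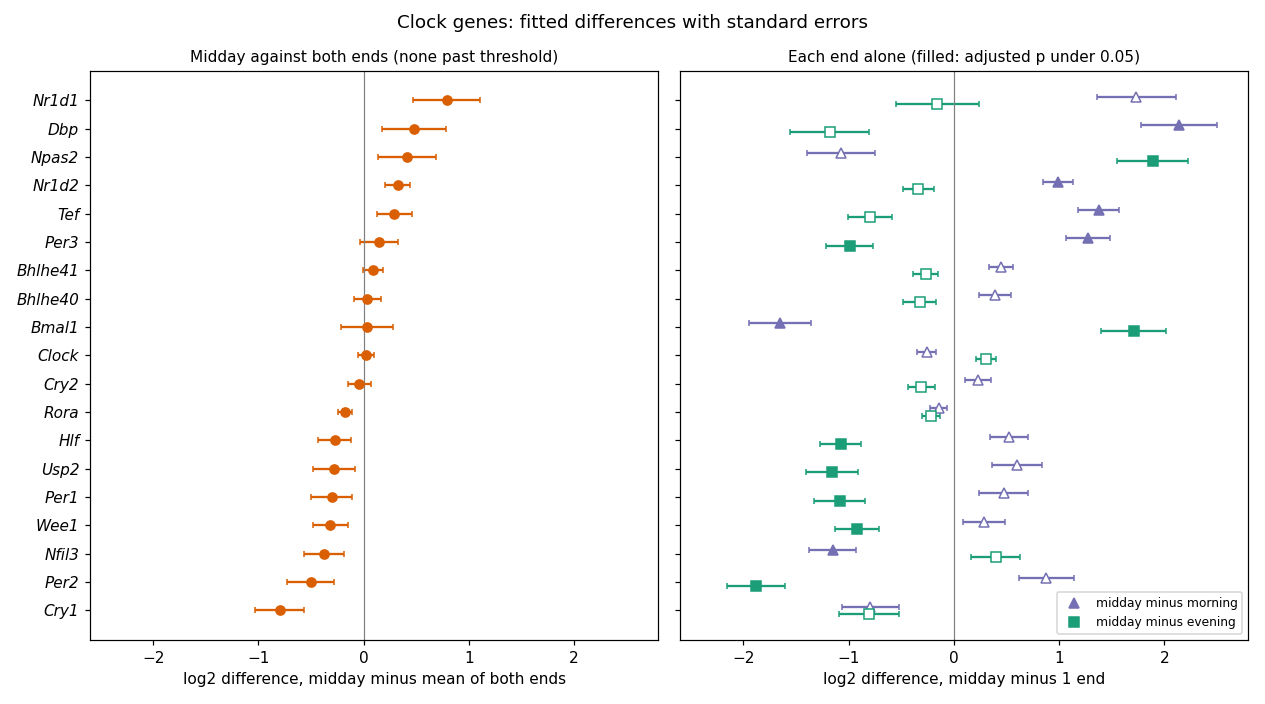
Fitted log2 differences of the 19 clock genes with bars of 1 SE. The left panel gives midday minus the mean of both ends, none past the threshold, from -0.80 for Cry1 to 0.79 for Nr1d1, and the right panel gives midday minus morning (triangles) and midday minus evening (squares), filled where the adjusted p is under 0.05. Cry1 and Rora are the only genes with both differences on the same side of 0.

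The promoters of 3 of these genes are shown because they hold the element through which the clock is known to act. Sequences are from RefSeq, build GRCr8, and run from 250 bases before the start site to 50 after it, 300 in all. The E-box searched was CACGTG, the D-box TTATGTAA or TTATGCAA and the cyclic AMP response element TGACGTCA, besides the heat shock element, on both strands, and no motif contains another. Capitals mark the match. The Per2 promoter (chr9:99496944-99497243, minus strand) holds a D-box 192 bases before the start site, the second Nr1d1 promoter (chr10:84229405-84229704, minus strand) an E-box 191 bases before it and the Tef promoter (chr7:115206577-115206876, plus strand) an E-box 198 bases before it.
Per2: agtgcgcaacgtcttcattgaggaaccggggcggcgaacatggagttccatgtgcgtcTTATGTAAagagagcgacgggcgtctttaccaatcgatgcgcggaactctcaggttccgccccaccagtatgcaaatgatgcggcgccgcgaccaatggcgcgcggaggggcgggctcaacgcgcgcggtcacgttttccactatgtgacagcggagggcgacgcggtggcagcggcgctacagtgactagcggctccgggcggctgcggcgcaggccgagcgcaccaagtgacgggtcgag
Nr1d1: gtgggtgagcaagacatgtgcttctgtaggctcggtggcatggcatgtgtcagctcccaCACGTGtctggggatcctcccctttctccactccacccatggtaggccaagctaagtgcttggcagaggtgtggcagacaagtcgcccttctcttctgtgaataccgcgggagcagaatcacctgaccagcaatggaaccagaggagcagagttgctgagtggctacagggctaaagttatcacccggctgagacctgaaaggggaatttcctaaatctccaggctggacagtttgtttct
Tef: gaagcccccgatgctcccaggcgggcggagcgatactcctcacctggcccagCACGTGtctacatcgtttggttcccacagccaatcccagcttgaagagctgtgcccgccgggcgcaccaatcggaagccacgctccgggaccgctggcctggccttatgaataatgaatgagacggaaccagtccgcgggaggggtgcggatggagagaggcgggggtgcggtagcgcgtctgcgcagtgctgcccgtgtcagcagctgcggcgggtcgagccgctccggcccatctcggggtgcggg

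Promoter entries were found for 18 clock list genes, and Cry1, Hlf and Wee1 had none. An E-box was found in at least 1 promoter of 5 genes (Nr1d1, Tef, Ciart, Bhlhe40 and Bhlhe41) and a D-box for 1 (Per2), against 6.42% and 1.73% of all 33469 promoters. These shares count promoters and not genes, and a gene can have more than 1 promoter, as Nr1d1 and Clock do. The first Nr1d1 promoter had no match. The cyclic AMP response element (1.83% of all promoters) and the heat shock element (0.798%) had no match among the clock list genes. Nr1d1 and Tef, with an E-box in this window, had 1.73 (adjusted p = 0.0874) and 1.38 (adjusted p = 0.00092) above morning at midday, and Bhlhe40 and Bhlhe41, which hold one too, had 0.39 (adjusted p = 0.834) and 0.45 (adjusted p = 0.194). Per2, with a D-box, had -1.88 against evening (adjusted p = 0.000378). Other genes called on their main probe set had no match in this window. These were Dbp, Nr1d2 and Nfil3 against morning, Per1, Usp2 and Npas2 against evening, and Per3 and Bmal1 on both sides. Whether a motif goes with a step was not tested.

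Over all probe sets the evening step held most of the calls. In all, 8 probe sets were called higher and 5 lower at midday than in the morning, and 37 higher and 78 lower than in the evening. The genes named in this paragraph and the next were chosen after their values were seen. Of 5 probe sets called on both sides, which share the midday rats, all had opposite signs, for Bmal1, Per3, Tef (2 probe sets) and Dtx4, so that 0 were called as a peak or a dip. Dtx4, which encodes a deltex E3 ubiquitin ligase, was lower than in the morning by a difference of -0.59 (adjusted p = 0.0108) and higher than in the evening by 0.51 (adjusted p = 0.0218). In the refits that each left out 1 rat, the morning call was lost without the rat of 31.6 h and the evening call without the rat of 41.6 h. Of 14 other alternatives, 7 lost the morning call of Dtx4 and 6 its evening call. Cdkn1a, the cell cycle inhibitor p21, was lower than in the morning by a difference of -0.70 (adjusted p = 0.0244), with intensities of 43.9 to 75.5 at midday against 62.8 to 149 in the morning. This call was lost in 6 of the 31 refits without 1 rat and in 8 of 14 other alternatives.

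Lower at midday than in the evening were Cys1, whose product cystin sits in the primary cilium, and Tsc22d3, the glucocorticoid-induced leucine zipper GILZ. Cys1 had 53.8 to 106 at midday, with a median of 74.8, against 44.8 to 75.1 with a median of 60.2 in the morning and 133 to 206 with a median of 168 in the evening, so that all 14 midday rats were below every evening rat. Its difference was -1.17 (SE 0.13, adjusted p = 8.04e-06). Tsc22d3 was lower by a difference of -0.93 (SE 0.14, adjusted p = 0.000378), with 13 of 14 midday rats below every evening rat. Both calls passed in all 45 alternatives. Herpud1, of the degradation pathway of the endoplasmic reticulum, was lower by a difference of -0.49 (adjusted p = 0.00257). Srebf1, the regulator of fatty acid synthesis, was lower on 2 probe sets by a difference of -0.63 and -0.61 (adjusted p = 0.0451 and 0.046), calls that 21 and 22 of the 31 refits lost. Spon2, a secreted matrix protein, was higher at midday than in the evening by 1.24 (SE 0.16, adjusted p = 0.00023). All 14 of its midday values, 613 to 1462, were above every evening value of 212 to 500. Rnf144a, a ubiquitin ligase, was higher than in the evening on 3 probe sets by 0.55 to 0.83. Against morning, 13 of 14 midday rats were below the median for Spon2, and 12 or 13 for each Rnf144a probe set.

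By the rule of the smallest unadjusted p, the 15 genes higher at midday were led by Lyplal1, a lysophospholipase-like protein, Ccdc136 and Fv1. Lyplal1 (1372281_at) had 199 to 318 at midday with a median of 230, against 162 to 245 with a median of 196 in the morning and 163 to 261 with a median of 208 in the evening. All 14 midday rats were above the morning median and 13 above the evening median, and the contrast was 0.26 (SE 0.05, unadjusted p = 5.02e-05, adjusted p = 0.157). It was above 0 on each day, from 0.17 to 0.39, in the same arrays by which the gene was picked. Ptpn4, a protein tyrosine phosphatase, had 465 to 1164 with a median of 788, against 390 to 961 with a median of 515 in the morning and 362 to 599 with a median of 538 in the evening. Its contrast was 0.59 (SE 0.14, adjusted p = 0.198), and a second probe set (1391757_at) had 0.38. Of 14 midday rats 13 were above the median of either end, but only 3 were above every morning rat.

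The highest contrast among these 15 was that of Fbn2, fibrillin-2 of the elastic microfibril, with 0.70 (SE 0.16, adjusted p = 0.198). It came from the evening side alone, with 1.42 against evening (SE 0.19, adjusted p = 0.00025) and -0.02 against morning. Fbn2 had 25.1 to 61.0 at midday, against 25.1 to 75.7 in the morning and 10.3 to 26.4 in the evening. Gja1, the gap junction protein connexin 43, had the same form, with a contrast of 0.31 (SE 0.07, adjusted p = 0.198), 0.54 against evening (adjusted p = 0.00123) and 0.07 against morning. Its intensity was 5678 to 8360 at midday, 5605 to 8210 in the morning and 3763 to 6014 in the evening. Arhgap28, a GTPase-activating protein, had 0.30, with 0.69 against evening (adjusted p = 0.000306). Of 14 midday rats 11 were below its morning median, and 12 were on its probe sets 1382948_at and 1390938_at. Rsph9 of the radial spoke, Dync2li1 of the ciliary dynein and Mks1 of the ciliary transition zone had 0.28, 0.28 and 0.20. Coq4 of coenzyme Q synthesis, Rad18 of DNA damage tolerance and Ccnc, cyclin C, had 0.27, 0.34 and 0.29, and Rnf122 and Dhrs7b had 0.30 and 0.20. A second probe set of Ccnc, Mks1 and Gja1 gave 0.02, -0.04 and 0.10.

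The 15 genes lower at midday were led by Tbc1d12, Ptprj, a receptor tyrosine phosphatase, and Pias1, a SUMO ligase, with contrasts of -0.34, -0.25 and -0.26 and an adjusted p of 0.157 each. Daglb, read by 2 probe sets, is a diacylglycerol lipase that makes the endocannabinoid 2-arachidonoylglycerol. Daglb (1384788_at) had 222 to 536 at midday with a median of 382, against 385 to 778 with a median of 576 in the morning and 402 to 776 with a median of 568 in the evening. All 14 midday rats were below both medians, 7 were below every morning rat and 10 below every evening rat. The contrast was -0.53 (SE 0.11, unadjusted p = 6.97e-05, adjusted p = 0.157), and a second probe set (1382440_at) gave -0.52 (SE 0.12, unadjusted p = 0.000182). On the 4 days it was -0.37, -0.72, -0.42 and -0.64. Ptprj and Pias1 were below 0 on each day as well, and their second probe sets gave -0.08 and -0.14. The genes were picked by this contrast on the same arrays, so the days are not separate evidence. Set against the evening alone, Tbc1d12 (-0.39, adjusted p = 0.0348), Ptprj (-0.31, adjusted p = 0.0224) and Daglb (-0.62, adjusted p = 0.0351) were lower at midday, while against morning they had -0.30, -0.20 and -0.45, not past the threshold. The evening calls were lost in 9, 3 and 14 of the 31 refits without 1 rat.

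Ccl28, a chemokine of mucosal and glandular epithelium, had the lowest contrast of the 15, -0.72 (SE 0.19, adjusted p = 0.314), at intensities near the limit of 10. It had 10.5 to 21.04 at midday, against 10.5 to 52.9 in the morning and 15.3 to 55.4 in the evening, and all 14 midday rats were below the evening median. Bcl2a1, an inhibitor of apoptosis, Mpeg1, the macrophage pore protein perforin-2, and Lcp2, the signalling adaptor SLP-76, are genes of leukocytes and had -0.38, -0.49 and -0.43, with -0.23 and -0.33 on second probe sets of Mpeg1 and Lcp2. Mpeg1 had 14.77 to 31.0 at midday, against 28.3 to 49.6 in the morning and 23.9 to 66.6 in the evening, and 11 of 14 midday rats were below every morning rat. Beside them, macrophage markers were below 0 in 9 of 11 (median -0.11, 1 at an unadjusted p under 0.05, Lyz2) and lymphocyte markers in 8 of 8 (median -0.17, none at an unadjusted p under 0.05), and the part of macrophage content was not tested. With the adipocyte, muscle, luminal and lymphocyte levels as covariates Bcl2a1 had -0.31, Mpeg1 -0.40 and Lcp2 -0.40. The remaining genes were Cys1 (-0.44), Rin3 (-0.27), Zfp236 (-0.22), Prkd3 (-0.39), Arhgap26 (-0.28), Itsn2 (-0.22) and Atp7a (-0.33), and 2 further probe sets of Atp7a gave 0.02 and 0.06, of Prkd3 -0.03 and -0.11, and 1 of Zfp236 -0.04. For Cys1 the contrast came from the evening side alone. Of 14 midday rats 12 were above its morning median, and 7 were above every morning rat.

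**Figure D3:**
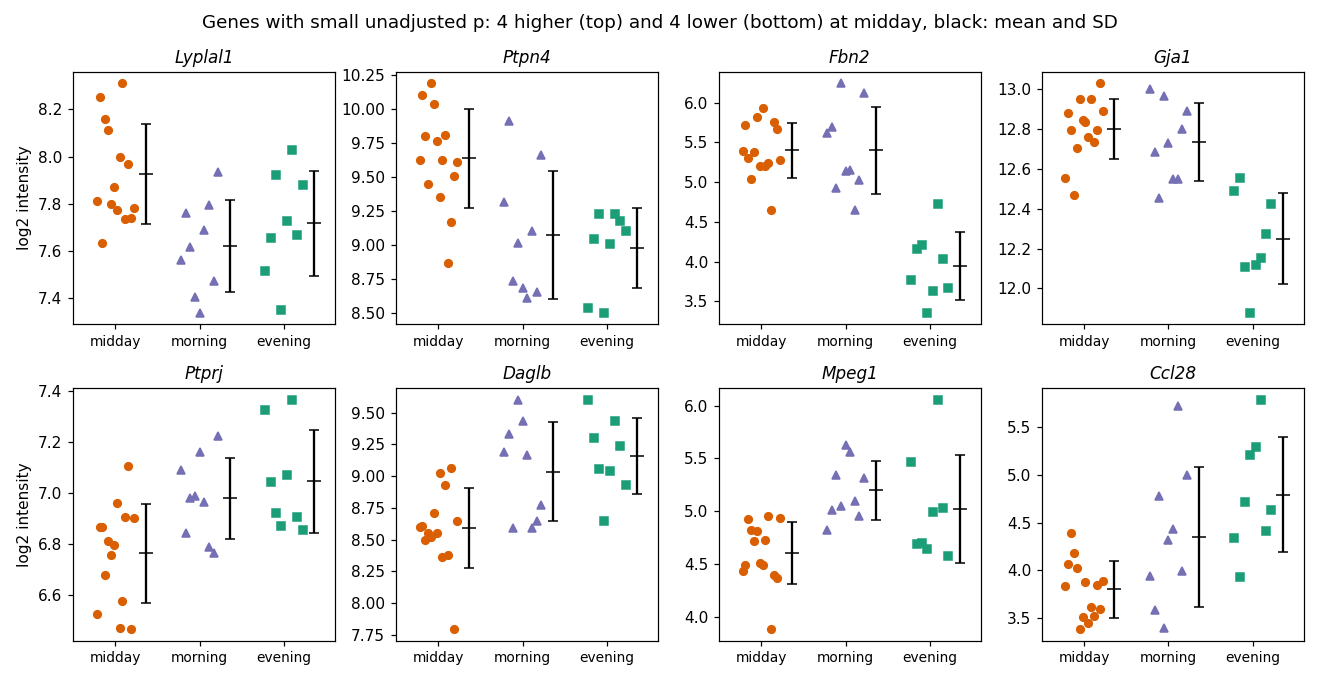
Log2 intensity of 8 genes with small unadjusted p in midday, morning and evening rats, 4 higher (top) and 4 lower (bottom) at midday. Each point is 1 rat, ordered by clock hour within its window, and black marks give the mean with a bar of 1 SD, over 14, 9 and 8 rats. Daglb lies lower at midday than at either end, with a median of 382 against 576 and 568, and Fbn2 and Gja1 have their morning points at the level of midday, with evening ranges of 10.3 to 26.4 and 3763 to 6014.

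No member of the other gene lists was called for midday against both ends in either direction, and each list is given by its signs and its median, beside 10289 probe sets above 0 and 10779 below 0 over the whole array. Interferon-stimulated genes had 1 of 12 above 0 and 11 below, with a median of -0.30. Their mean centred level ran from -0.48 to 0.36 at midday with a median of -0.19, from -0.48 to 1.11 in the morning with a median of -0.03 and from -0.22 to 0.88 in the evening with a median of 0.11. The morning and evening maxima were the rats of 57 h and 65.6 h. Mx1 (-0.52), Ifit3 (-0.46), Usp18 (-0.45) and Oas1a (-0.34), which act against viruses or in interferon signalling, had unadjusted p values under 0.05. For Ifit3 the intensity was 13.6 to 45.2 at midday, against 20.7 to 57.5 in the morning and 32.7 to 87.1 in the evening. Mitosis genes had 16 of 17 above 0, with a median of 0.35 and none at an unadjusted p under 0.05. The mean level of the mitosis list, centred on the 31 arrays, ran from -1.17 to 3.16 at midday, from -1.19 to 1.46 in the morning and from -1.07 to 2.05 in the evening. The highest midday value belonged to the rat of 62.5 h, and the midday median of -0.19 lay between -0.36 in the morning and 0.003 in the evening.

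Fuel genes were mixed. Of the fatty acid oxidation list 13 of 17 were above 0, with a median of 0.10, led by Angptl4 (0.59), an inhibitor of lipoprotein lipase, Pdk4 (0.58), which restrains glucose oxidation, and Acot1 (0.44), an acyl-CoA thioesterase. Angptl4 had 1406 to 4960 at midday, against 877 to 4825 in the morning and 423 to 3497 in the evening, with 1.21 against evening (adjusted p = 0.0743) and -0.02 against morning. The fatty acid synthesis list had 6 of 17 above 0 (median -0.05) and the cholesterol list 6 of 16 (median -0.02). Glucocorticoid-responsive genes had 8 of 11 below 0, led by Fkbp5 (-0.43), a co-chaperone of the receptor, and Tsc22d3 (-0.35), with -0.91 (adjusted p = 0.0854) and -0.93 (adjusted p = 0.000378) against evening. The cold-inducible RNA-binding genes Rbm3 and Cirbp had 0.21 and 0.17. Heat shock chaperones had 13 of 17 below 0, with contrasts from -0.17 for Hsph1 to 0.05 for Hsp90ab1, and genes of the stress response of the endoplasmic reticulum had 12 of 18 above 0, led by the transcription factor Xbp1 (0.20). Genes of the matrix had 14 of 16 above 0 (median 0.07, led by Eln, elastin, with 0.37). Areg, the ligand amphiregulin, had 0.89 (SE 0.41) and Pgr, the progesterone receptor, 0.35 (SE 0.28), and all 6 tested of 10 genes of the hormone-sensing list were above 0. Of that list, Esr1, Tnfsf11, Foxa1 and Cited1 were not tested.

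Of the markers of the labelled tissue, Adipoq, the adipocyte hormone adiponectin, was at 4280 to 7844 at midday, 4188 to 7629 in the morning and 3206 to 7271 in the evening. Tests could be made for 13 of 15 luminal genes (median 0.05; Esr1 and Foxa1 were under the intensity limit), 10 of 11 basal genes (0.04) and 12 of 13 adipocyte genes (0.05), none called. Of the 30 lists, skeletal muscle, the tissue under the gland, had the median furthest from 0. All 6 tested of 13 muscle markers were above 0, with a median of 0.76, a contrast of 1.02 for Myh4 (SE 1.05) and 0.32 for Myh1 (SE 0.10). Over the 31 arrays the Myh1 probe set ran only from 1098 to 3500, against 10.8 to 7673 for Myh4. The mean centred muscle level ran from -3.72 to 2.41 at midday, from -4.31 to 2.36 in the morning and from -3.03 to 1.69 in the evening. Its extremes in the midday group were the rats of 82.5 h and 13.2 h. Of the muscle list, Ckm, Tnnc2, Myh2, Atp2a1, Myh7 and Tnnt1 were under the intensity limit on at least 1 array. Milk proteins were below 0 in 5 of 5, with a median of -0.19, led by Wap (-0.97, SE 0.72). With the mean levels of the adipocyte, muscle, luminal and lymphocyte lists in the fit, 3 probe sets were called higher and 4 lower. Fbn2 (0.71, adjusted p = 0.0457) and Ptprj (-0.27, adjusted p = 0.0457) were among them, Daglb had -0.53 and Lcp2 -0.40 (adjusted p = 0.0796 and 0.0805), and Cry1 had -0.72 (adjusted p = 0.304).

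**Figure D4:**
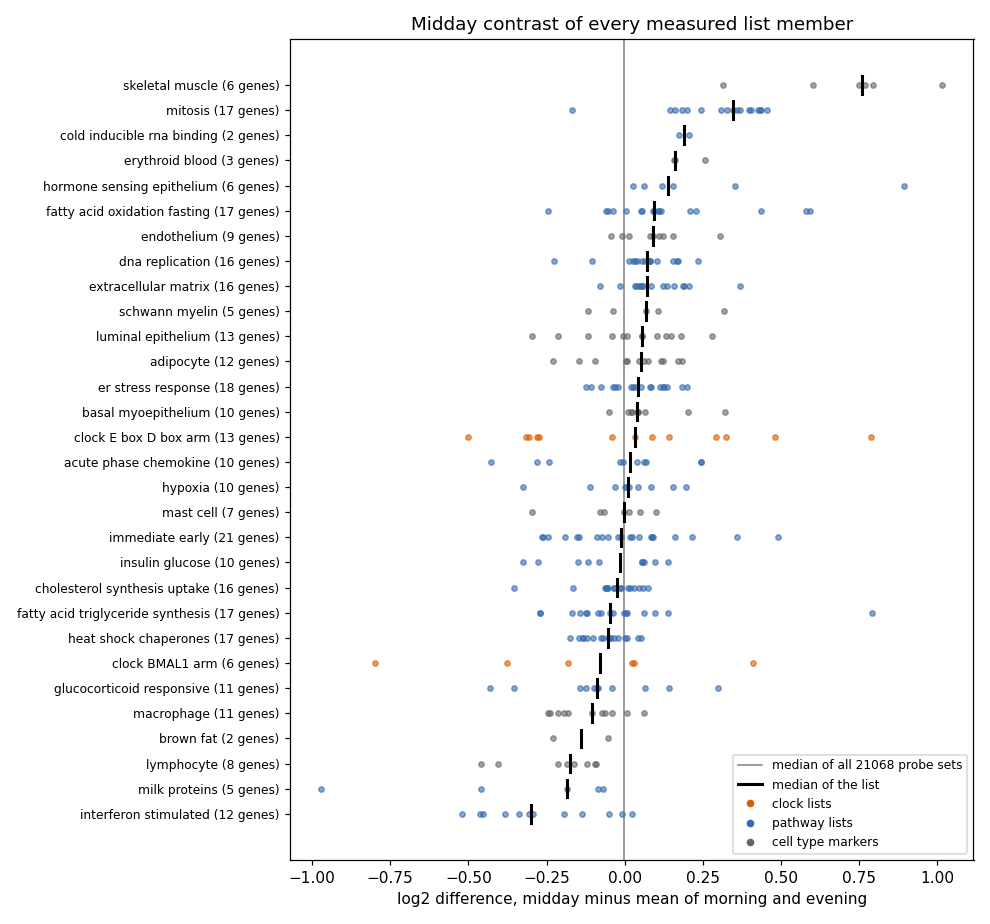
Log2 difference between midday and the mean of both ends for every tested member of 30 lists, ordered by the list median (black bar), with the number of genes tested. Colours separate clock lists, pathway lists and cell type markers, and the grey line is the median of all probe sets, -0.0028. Muscle markers (median 0.76) and mitosis genes (0.35) lie to the right and interferon-stimulated genes (-0.30) to the left, with no member past the threshold.

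Whether the midday contrast differed between the 4 cycle days was asked in a fit with a mean for each window of each day. No probe set passed (0%, smallest adjusted p 0.57), and 1146 (5.44%) had an unadjusted p under 0.05. The windows did not fall at the same hours on each day. The mean hour of the midday rats was later than the mean of the ends by 1.12 h on day 1 and 0.40 h on day 4 and earlier on days 2 and 3, with -0.90 and -0.37 h. The evening of day 4 was 1 rat, and the other windows of a day held 2 to 4. For Dbp, which climbs through the day, the contrast was 0.98, 0.74, 0.36 and -0.25 on days 1 to 4, and for Per3 0.69, 0.18, -0.07 and -0.22. For Bmal1, which falls, it was -0.34, -0.00012, -0.13 and 0.58. Of the 15 lower genes Lcp2 alone had a day on the other side of 0, day 1 with 0.10, and of the 15 higher genes none did. Both sets were picked by the smallest unadjusted p of this contrast on the same arrays. Their signs by day are therefore not separate evidence for it.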

How the data were processed

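Gland RNA of 32 rats, 1 rat per array and none pooled, was hybridised to Affymetrix Rat 230 2.0 arrays. The deposited values are intensities on a linear scale that the authors made with GC-RMA in GeneSpring, by background correction, quantile normalization between arrays and summary to probe sets. The version and any genome build are not given in the sources used here. The labels describe glands kept in a preservative and the methods describe frozen glands, and this was not resolved. No scan or array batch is given.

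Here 57 control probe sets were left out of 31099, and the 21068 with an intensity of 10 or more on all 31 arrays were taken to log2. Limma 3.58.1 (R 4.3.3, lmFit and eBayes) fitted cycle day and window, with Benjamini-Hochberg adjustment over all probe sets and a threshold of 0.05, two-sided. The differences from morning and from evening came from the same fit. Scripts were tested on simulated data. Platform annotation gave 1 symbol to 15568 probe sets, several to 353 and none to 5147.

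Genes named are those past the threshold, filled up to 15 a direction by the smallest unadjusted p, all measured clock genes and a few members of each list. Members and lists were chosen with earlier results of these data known. Alternatives changed the filter, normalization, weights, windows, covariates, days and single rats. The number of arrays limits the precision. The p-values rest on the spread between the rats of a window. That spread also holds differences between the hours of the window and between days in the window effect.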

Additional observations from a re-analysis of the deposited data

Results flagged for a closer look

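In the morning group a rat stood apart for Bhlhe40 and a different rat for Itsn2, by a gap to the next rat that was large for the range of the group. Bhlhe40 had an intensity of 376 in the rat of 58 h, and the next morning rat had 297. Itsn2 (1393625_at) had 289 in the rat of 80.9 h, and the next had 224. In all 98 groups were examined and 2 stood out in this way, where chance alone gives about 1 in 20.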

How the results depend on the processing

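For midday against both ends, where no probe set was called, array weights gave 1 higher and 4 lower (among them Lyplal1, Ptprj and Daglb), the hour and its square 2 and 1, the 4 tissue marker covariates 3 and 4, leaving out day 1 gave 1 and 1 (Rsph9 and Pias1), and leaving out day 3 gave 1 and 0 (Ccdc81). Single rats left out gave 0 to 1 in each direction, with Lyplal1 called without the rat of 62.5 h and Ptprj without that of 86.3 h. Probe sets called with both steps higher numbered 1 with array weights, 3 with tissue covariates, 1 without day 1 and 1 without day 3, and with both steps lower 4, 4 and 1 in the first 3 of these, with 0 to 1 for each when single rats were left out. Both steps were themselves called in 1 direction for 1 probe set with array weights and for 0 to 1 without single rats.

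Against morning, the 8 higher and 5 lower became 4 and 0 with midday narrowed to 11 to 14 h, 3 and 0 with rats under 11 h as morning and over 14 h as evening, 0 and 0 with tissue covariates, 3 and 1 without day 1, and 0 and 0 without day 2 and without day 3. The 5 lower became 9 with array weights and 3 with 32 arrays, without cycle day in the fit and without day 4. Single rats left out gave 5 to 12 higher and 0 to 10 lower, with 5 and 0 without the rat of 31.6 h, and 10 lower without those of 80.9 and 83.9 h.

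Against evening, the 37 higher and 78 lower became 99 and 191 with array weights, 7 and 31 with rats under 11 h as morning and over 14 h as evening, 8 and 15 without day 1, 10 and 12 without day 2, 14 and 11 without day 3 and 15 and 34 without day 4. The 37 became 20 with midday narrowed and 58 with tissue covariates, and the 78 became 44 with 32 arrays. Single rats left out gave 16 to 55 higher and 32 to 156 lower, with the 16 without the rat of 17.6 h, the 32 without that of 41.6 h and the 156 without that of 86.3 h. The cause of these shifts was not tested, but a day or rat left out leaves fewer samples.

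Of 49 named probe sets 5 changed the sign of a contrast near 0. Bhlhe40 had -0.047 with array weights, -0.0061 with tissue covariates, -0.080 without day 1 and -0.031 without day 2. Bmal1 had -0.040 with 32 arrays, -0.097 against all other arrays, -0.061 with the hour and its square and -0.13 without day 4. Clock had -0.013 with the hour and its square, -0.0036 with midday narrowed, -0.045 with rats under 11 h as morning and over 14 h as evening and -0.036 without day 4. Cry2 had 0.024 without day 3 and Per3 -0.041 without day 1. Without single rats the contrasts ran from -0.026 to 0.094 for Bhlhe40, from -0.12 to 0.14 for Bmal1, from -0.0065 to 0.059 for Clock and from -0.086 to 0.0095 for Cry2, with the sign changed in 3, 7, 4 and 1 of the 31 refits. The differences from morning and from evening have no value for the fits on the hour and for midday against all other arrays. No paired analysis was possible because each rat was killed for its sample, so that each array comes from a different rat.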
